A study of Mus musculus with 8 samples.

Results

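Actin filaments and microtubules are built from a few proteins that most cells make in large amounts, and their mRNAs are among the most abundant of mouse embryonic stem cells (mESCs). The 10 genes described here were chosen by name: Actb and Actg1 (the cytoplasmic β- and γ-actins), Cfl1 (cofilin, which severs actin filaments), Pfn1 (profilin, which binds actin monomers and promotes their addition to filaments), Tmsb4x and Tmsb10 (β-thymosins, which sequester actin monomers), Tuba1a, Tuba1b and Tubb5 (an α-tubulin pair and a β-tubulin), and Vim (vimentin, an intermediate filament protein of mesenchymal cells). Each symbol matched 1 Ensembl identifier, so all 10 were found among the 50686 identifiers of the count table. Several of these genes are used to normalise measurements of other genes, which requires that their own level be steady. All 10 passed the filter on low counts, and none had fewer than 1174 counts in any library.

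The mESCs were wild type (R9wt) or carried a deletion of Rad9 (R9del, Rad9-/-), a gene of DNA damage checkpoint control and repair, and were grown for 1 day (D1) or 5 days (D5) either in a satellite payload in orbit or in the same kind of payload on the ground. Each of the 8 combinations is 1 mRNA library, so a comparison of groups sets 4 libraries against 4 that also differ in the other conditions, and p-values measure the spread between these libraries. D1 and D5 cultures sat in separate device groups with their own temperature control and started from different cell numbers (at D5 also different between genotypes), so culture duration cannot be told apart from these. Space libraries differ from ground libraries in microgravity, space radiation and the other conditions of flight together. The sources used here do not say how many clones the R9del cells came from.

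Library totals lay between 58238440 and 96416907 counts. Levels are given in CPM, the counts of a gene relative to the library total, after TMM scaling, which equalises the bulk of genes between libraries. Rad9a, the deleted gene, lay between 20.8 and 28.6 CPM in the R9del libraries and between 70.3 and 93.4 CPM in the R9wt libraries, so that the groups did not overlap (log2 fold change -1.77 ± 0.21, SE, adjusted p = 0.0270 with edgeR's quasi-likelihood test). That call was lost without 4 of the 8 libraries in turn. The summed level of the pluripotent stem cell markers lay between 5223 and 8753 CPM in every library, with Pou5f1, which encodes Oct4, at 958 CPM or more. Dppa5a alone had 4602 CPM in the ground R9wt D5 library. Zfp42 of that list varied more than the sum, from 84.1 CPM in space R9wt D1 to 852 CPM in space R9del D1. In ground R9wt D1 it had 622 CPM. The summed level of the fibroblast and feeder cell markers lay between 28.8 and 70.1 CPM, and Dcn, Lum and Postn of that list were at or near 0. Primitive endoderm markers summed to between 19.4 and 338 CPM, highest in the space R9del D5 library. Single markers differed between space and ground by edgeR's test: Sox2 fell by 0.97 on the log2 scale (adjusted p = 0.0269, lost without 6 of the 8 libraries in turn), Esrrb rose by 1.16 (adjusted p = 0.00794), and Sox17 of primitive endoderm fell by 3.92 from 4.12 to 0.272 CPM (adjusted p = 0.0181, lost without 3 of the 8). Of the 10 primitive endoderm markers, Sox17 alone passed, while 6 had higher estimates in space and the median log2 fold change of the list was 0.66. Of the 12 pluripotent stem cell markers, 4 had higher estimates in space and the median was -0.44. Over all genes tested, 10459 of 20544 had higher estimates in space and the median was 0.014. The part of these markers in the space results was not tested. In bulk libraries, fewer cells of a type and less RNA per cell cannot be told apart.

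A pair of upstream sequences is shown because the actin genes are textbook targets of serum response factor, which binds the CArG box, and because Pfn1 gave the largest group difference of the 10 genes. They are written 5′ to 3′ on the gene's strand, from the RefSeq promoter table (build GRCm38.p6), and were matched to mm9 by their exact sequence. Capitals mark a CArG box.
Actg1, chr11:120209857-120210059, minus strand: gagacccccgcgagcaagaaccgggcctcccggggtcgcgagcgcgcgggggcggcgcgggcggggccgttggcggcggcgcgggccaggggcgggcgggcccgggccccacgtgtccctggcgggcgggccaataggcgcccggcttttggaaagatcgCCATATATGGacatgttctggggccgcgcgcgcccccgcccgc
Pfn1, chr11:70468153-70468402, minus strand: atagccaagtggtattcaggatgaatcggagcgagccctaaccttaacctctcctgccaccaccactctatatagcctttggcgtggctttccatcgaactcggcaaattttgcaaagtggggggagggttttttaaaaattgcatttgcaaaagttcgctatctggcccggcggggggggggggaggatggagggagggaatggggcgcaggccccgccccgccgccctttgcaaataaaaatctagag

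The shown Actg1 stretch ends where the annotated Actg1 exon begins, and its far end lies over a coding exon of a neighbouring gene on the other strand. The Pfn1 stretch overlaps an annotated antisense RNA. Of the members with an entry in that table, Actg1 alone held a CArG box in the 250 bases before its start, as did 1.47% of 32851 promoters of that length. TATAAA, searched on both strands, was found for Vim and in 12.4% of promoters. The letters GGGCGG, which were found in 32.7% of promoters, occurred 6 times before Actg1 and 2 times before Pfn1. Actb has no entry. Pfn1 spans chr11:70465352-70468146 and Actg1 spans chr11:120207004-120209856 in mm9, both on the minus strand.

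Compared between genes per length, as CPM per kb of merged exons, mean levels over the 8 libraries were highest for Cfl1 (810.4 ± 164, SD, n = 8) and Tuba1b (656 ± 130, SD). Actb (495 ± 209, SD) and Actg1 (435 ± 141, SD) followed, then Pfn1 (296 ± 164, SD), Tubb5 (227 ± 48.0, SD), Tuba1a (195 ± 65.4, SD) and Tmsb4x (116 ± 53.1, SD). Tmsb10 (47.0 ± 13.1, SD) and Vim (33.2 ± 18.0, SD) were lowest. Neighbours in this order differed by less than the larger of their SDs, except for Tuba1a against Tmsb4x and Tmsb4x against Tmsb10, which lay further apart than either SD. Levels of gene copies are less certain. Of the 100-base stretches of the coding transcripts, the length of the reads, 68.4% for Tuba1b, 62.7% for Actg1, 52.6% for Tuba1a and 21.7% for Tmsb10 occur elsewhere in the mm9 genome, against 1.43% for Cfl1, 0.806% for Actb and 0 for Pfn1, Tmsb4x, Tubb5 and Vim. How such reads were counted is not given in the sources used here.

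The sum of the 10 genes was between 4012 CPM in the space R9wt D1 and 8069 CPM in the ground R9wt D1 library. As a share of all counts, before TMM scaling, it was lowest in the space R9wt D1 library, at 0.415% (95% Wilson interval 0.414% to 0.417%), and highest in the space R9del D1 library, at 0.792% (0.790% to 0.794%); intervals cover counting error only. The space R9wt D1 library held the lowest value for 7 of the 10 genes, whereas it held the lowest value for 22.7% of the 2335 genes that averaged 100 CPM or more. Tmsb10 and Vim averaged less than 100 CPM and are not among those 2335 genes.

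**Figure D1:**
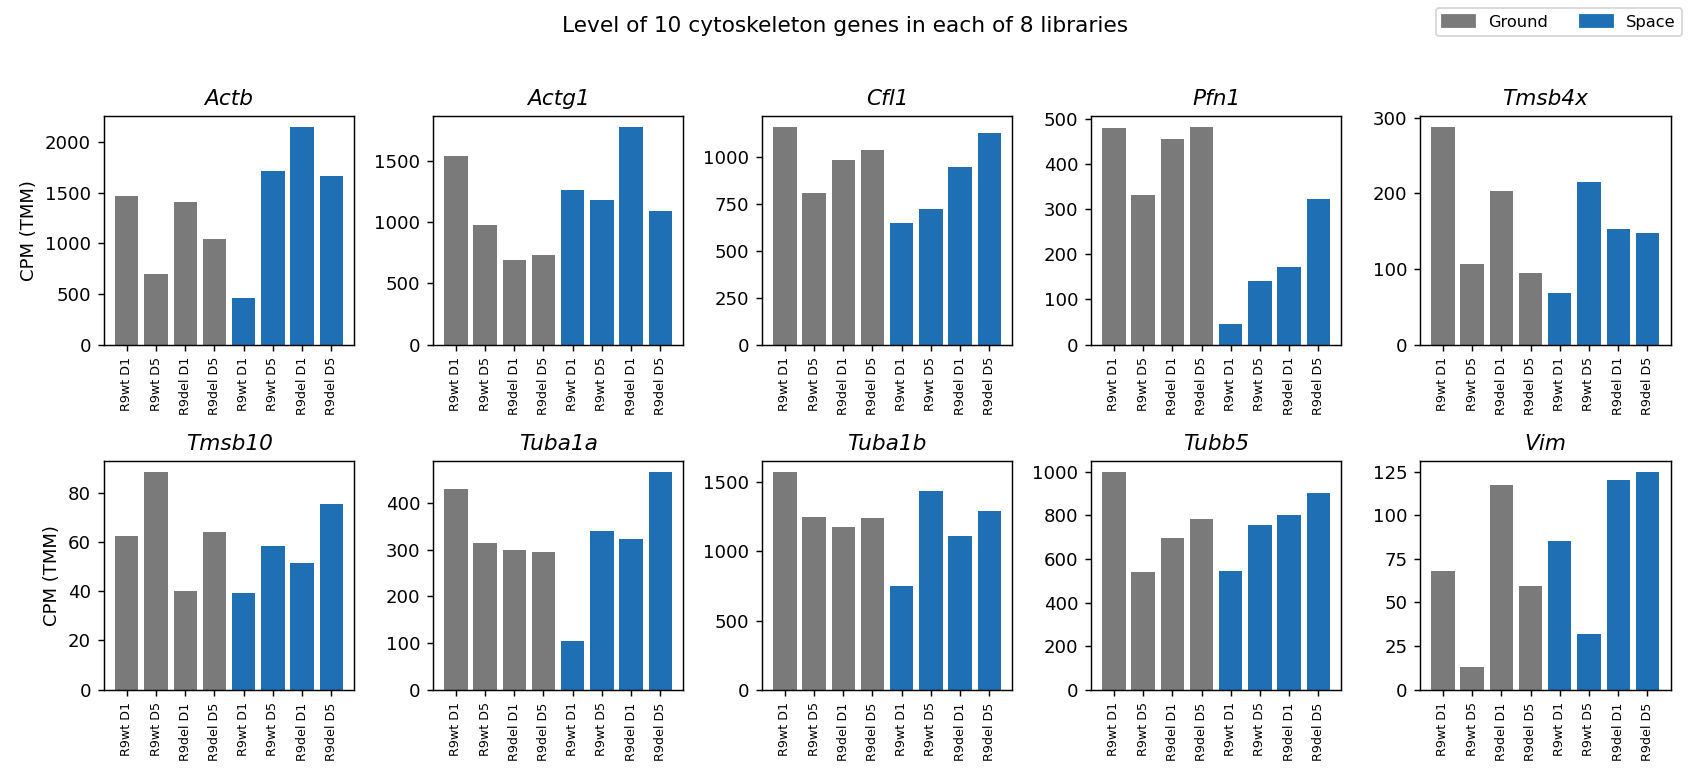
Level of each gene in CPM after TMM scaling (y axis from 0, scale of its own per panel) in the 8 libraries (x axis); grey bars are ground and blue bars space libraries, 1 bar for 1 library. Pfn1 is lower in all 4 space libraries, at 46.1 to 323 CPM, than in all 4 ground libraries, at 332 to 482 CPM.

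Pfn1 had a level of 479.9 CPM in R9wt D1, 332 CPM in R9wt D5, 456 CPM in R9del D1 and 482 CPM in R9del D5 on the ground. In space it had 46.1 CPM in R9wt D1, 141 CPM in R9wt D5, 172 CPM in R9del D1 and 323 CPM in R9del D5. Ground and space libraries did not overlap, and each space library was below its ground partner. The lowest space value was 0.096 of its ground partner and the highest 0.670 of it. The groups averaged 437 ± 71.2 CPM (ground, SD, n = 4) and 171 ± 115 CPM (space, SD, n = 4).

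The comparison of space with ground asks what spaceflight does to the cells whatever their genotype or culture duration. With edgeR's quasi-likelihood test, 6.31% of the 20544 genes tested had an adjusted p under 0.05 and none of the 10 members did. DESeq2's Wald test called none of them either. The gene closest to it was Pfn1 (log2 fold change -1.36 ± 0.47, SE, unadjusted p = 0.0154, adjusted p = 0.137, lower in 4 of 4 pairs). It was the 1 member with an unadjusted p under 0.05, as were 18.8% of genes. Pfn1 also was at least 2-fold lower with an unadjusted p under 0.05, as were 8.39% of genes. Its space libraries lay wholly below the ground libraries, as for 9.38% of genes (14.4% in either direction), and 18.1% of genes were lower in all 4 pairs. The adjusted p of Pfn1 lay between 0.0364 and 0.285 over 14 alternative settings: it was 0.0364 with genotype and day as covariates (log2 fold change -1.63), 0.0579 with matched pairs as a block and 0.0427 without the space R9del D5 library (-1.87). Without the space R9wt D1 library the log2 fold change was -1.04 and the adjusted p 0.101 in edgeR. Over all genes, covariates called 527 higher and 1586 lower, against 206 and 1091 in the main fit, of 20544 genes each. The fit without the space R9del D5 library called 111 higher and 828 lower of 21224 genes.

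The most GC-rich 200-base window of the Pfn1 transcript is 72.0% GC, and the transcript, 861 bases long, is in the shortest quartile of genes, among those that averaged 10 CPM or more. In the quartile of genes whose richest window was 68.0% to 73.5% GC, 7.61% fell in space, against 1.49% in the lowest quartile and 21.4% in the highest; 94.9% of the 9731 genes had a value. By transcript length, 10.7% of the shortest quartile fell (median log2 fold change -0.28) and 11.9% of the second (median 0.0073). In the third 6.07% fell (median 0.17) and in the longest 3.07% (median 0.27). The part of GC content and of transcript length in the Pfn1 result was not tested. Nor was it tested for the other cytoskeleton genes that fell in space, which are given below.

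The actins were higher in space by their point estimates, and neither passed. Actb had 1468 CPM in R9wt D1, 695 CPM in R9wt D5, 1414 CPM in R9del D1 and 1046 CPM in R9del D5 on the ground, and 461, 1720.2, 2151 and 1662 CPM in the same order in space. The space libraries were higher in 3 of the 4 pairs, while the space R9wt D1 library was the lowest of all 8. Space against ground gave a log2 fold change of 0.38 ± 0.42 (SE, adjusted p = 0.715) for Actb. Without the space R9wt D1 library it was 0.68 ± 0.28 (SE, unadjusted p = 0.0408, adjusted p = 0.240 in edgeR), and without the space R9del D1 library 0.15 and without the ground R9wt D5 library 0.20. Actg1 had 1539, 979.6, 687 and 733 CPM in that order on the ground and 1263, 1183, 1778 and 1094 CPM in space, again higher in 3 of 4 pairs (log2 fold change 0.43 ± 0.29, SE, adjusted p = 0.488). It was 0.73 (adjusted p = 0.178) without the ground R9wt D1 library and 0.26 without the space R9del D1 library.

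Cfl1 varied little, at 1162, 807, 983 and 1041 CPM in R9wt D1, R9wt D5, R9del D1 and R9del D5 on the ground and at 648, 721, 949 and 1131 CPM in space. Space libraries were higher in 1 of 4 pairs (log2 fold change -0.21 ± 0.22, SE, adjusted p = 0.697; -0.37 without the space R9del D5 and -0.093 without the space R9wt D1 library). For the thymosins, Tmsb4x had 288, 107, 204 and 94.3 CPM on the ground and 68.0, 215, 153 and 148 CPM in space. The ground D1 libraries were high and the ground D5 libraries low, an order that the space R9wt libraries reversed. Tmsb10 had 62.4, 88.4, 40.1 and 64.2 CPM on the ground and 39.2, 58.5, 51.6 and 75.3 CPM in space. For both thymosins space and ground overlapped, with log2 fold changes of -0.25 ± 0.42 (Tmsb4x) and -0.18 ± 0.28 (Tmsb10).

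Among the tubulins, Tuba1a had 429.5, 315, 298 and 295 CPM on the ground in that order and 105, 340.5, 322 and 466 CPM in space. Tuba1b had 1574, 1252, 1175 and 1245 CPM on the ground and 749, 1435, 1112 and 1296 CPM in space. Tubb5 had 998, 539, 698 and 785 CPM on the ground and 547, 755, 803 and 905 CPM in space. The R9wt D1 library was the highest of the ground libraries for all 3 tubulins, and in space it was the lowest for all 3. Space against ground gave log2 fold changes of -0.12 ± 0.38 (Tuba1a), -0.19 ± 0.23 (Tuba1b) and -0.0052 ± 0.24 (Tubb5, SE); the sign for Tubb5 turned with other scalings. For Tuba1b it was -0.31 without the space R9wt D5 and -0.030 without the space R9wt D1 library. Vim had 68.2, 13.1, 117 and 59.5 CPM on the ground and 85.1, 31.9, 120.2 and 125 CPM in space, higher in 4 of 4 pairs (log2 fold change 0.49 ± 0.59, SE, adjusted p = 0.734), as were 14.9% of genes. With the block the estimate for Vim was 0.68 (unadjusted p = 0.0286, adjusted p = 0.160 in edgeR), and it lay between 0.15 and 0.95 without 1 library.

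**Figure D2:**
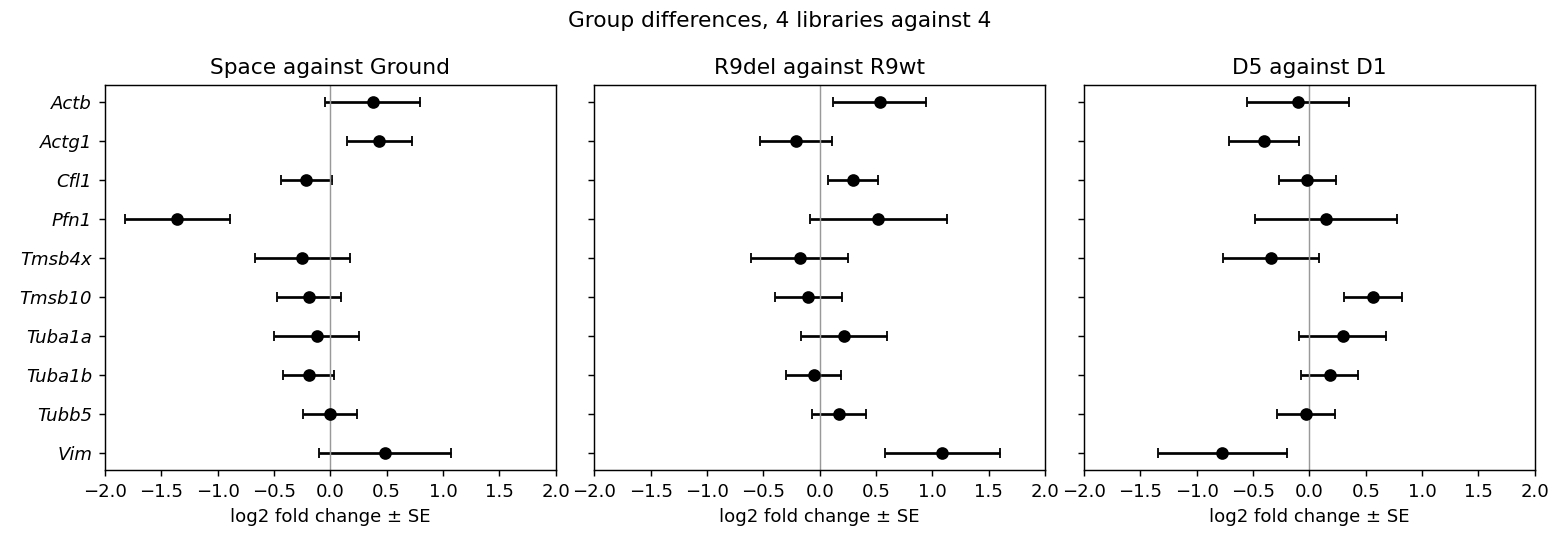
Log2 fold change (x axis) of each gene (y axis) with its standard error in 3 comparisons of 4 libraries against 4, from edgeR's quasi-likelihood test. Pfn1 in space against ground, at -1.36, and Vim in R9del against R9wt, at 1.09, are the points farthest from 0.

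Cofilin and profilin act on the same filaments, and the ratio of their levels does not depend on scaling. Since the level of Cfl1 varied little, the ratio mostly restates the Pfn1 values above. Cfl1/Pfn1 was 2.42 in R9wt D1, 2.43 in R9wt D5, 2.16 in R9del D1 and 2.16 in R9del D5 on the ground, where the range was narrow. In space it was 14.1 in R9wt D1, 5.13 in R9wt D5, 5.51 in R9del D1 and 3.50 in R9del D5. The groups did not overlap, and the mean log2 ratio was 1.42 higher in space than on the ground (2.61 ± 0.85 against 1.19 ± 0.097, SD, n = 4). The two-sided exact permutation test gave p = 0.0286, the smallest that 4 against 4 libraries allow, and 0.343 after Benjamini-Hochberg adjustment over 12 ratio tests, which does not pass. Leaving out each library gave differences between 1.01 and 1.68.

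Actb/Actg1 lay between 1.21 and 2.06 in R9del and between 0.365 and 1.45 in R9wt libraries (difference in mean log2 ratio 0.98, exact permutation p = 0.0857, adjusted 0.514, without pairing), and R9del was higher in 4 of 4 pairs. Tuba1a/Tuba1b stayed between 0.237 and 0.273 on the ground, whereas the space values spread from 0.140 in R9wt D1 to 0.359 in R9del D5. Tmsb4x/Tmsb10 was 4.61 in the ground R9wt D1 and 5.09 in the ground R9del D1 library and 1.21 and 1.47 in their D5 partners; in space R9wt it was 1.73 at D1 and 3.67 at D5, and in space R9del 2.97 and 1.96. Neither the α-tubulin nor the thymosin ratio had an exact permutation p below 0.171 in any comparison.

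**Figure D3:**
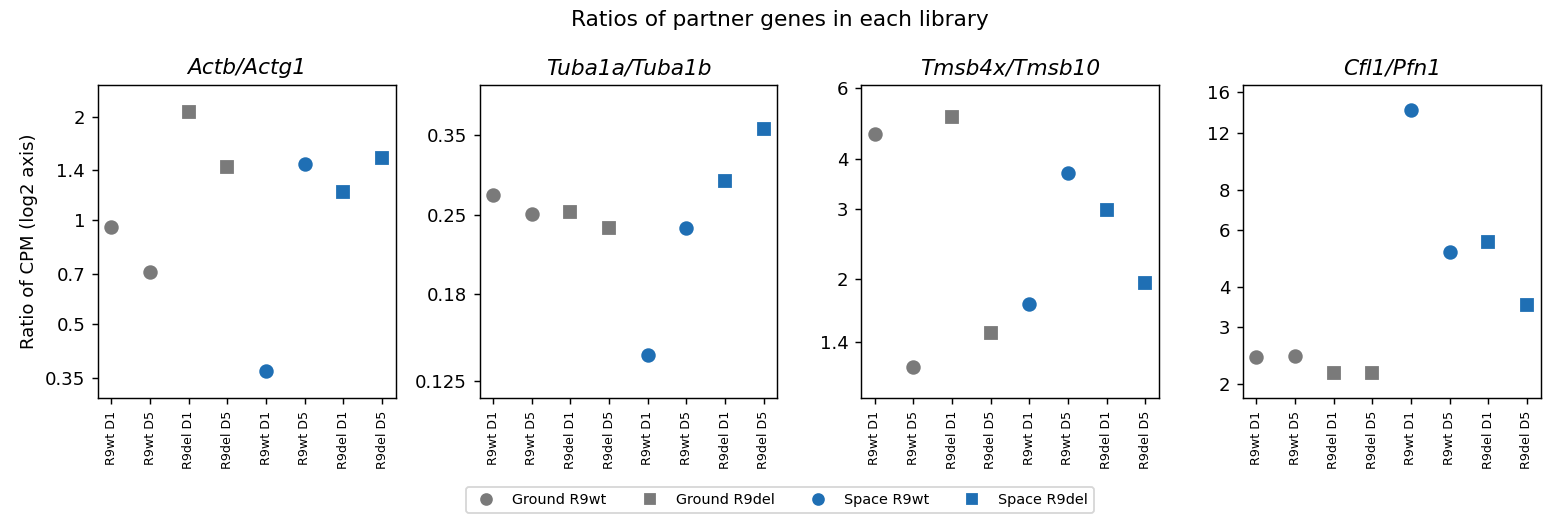
Ratio of the CPM of 4 gene pairs (y axis, log2 scale, range of its own per panel) in the 8 libraries (x axis), 1 point for 1 library; grey is ground, blue space, circles R9wt, squares R9del. Cfl1/Pfn1 lies between 2.16 and 2.43 in ground libraries and between 3.50 and 14.1 in space libraries.

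The comparison of R9del with R9wt asks what loss of Rad9 does in either location. No member passed the adjusted threshold, which 1.81% of genes did, none had an unadjusted p under 0.05 (20.2% of genes did), and DESeq2's Wald test called none. Vim was closest. Its R9del libraries had 59.5 to 125 CPM and its R9wt libraries 13.1 to 85.1 CPM, so that the groups overlapped (no member's groups were apart, as 14.3% of genes were), but R9del was higher in 4 of 4 pairs, as were 19.0% of genes. The pairs differed most at D5, where R9del was 4.53-fold higher on the ground and 3.91-fold higher in space; at D1 these ratios were 1.72 and 1.41. The log2 fold change of Vim was 1.09 ± 0.51 (SE, unadjusted p = 0.0592, adjusted p = 0.268). With the matched pairs as a block it was 1.36 (edgeR, adjusted p = 0.0395) and with location and day as covariates 1.36 (adjusted p = 0.0488). Over all 14 alternatives the adjusted p of Vim lay between 0.0395 and 0.442. These 2 fits called more of the 20544 genes than the main fit did. The block called 818 higher and 852 lower, covariates 681 and 800, and the main fit 214 and 157. The summed fibroblast and feeder cell markers lay between 28.8 and 54.5 CPM in R9del and between 41.7 and 70.1 CPM in R9wt libraries, which overlapped. The summed neural markers, 8 genes found in the table, lay between 96.8 and 135 CPM in R9del and between 15.9 and 39.9 CPM in R9wt libraries, and the groups did not overlap. Tubb3 made up most of the sum in R9del, and Neurod1 of that list had 14.2 to 29.7 CPM in R9del and 2.26 to 8.63 CPM in R9wt libraries. Of the 5 neural markers tested, 4 had an unadjusted p under 0.05, 3 of them higher in R9del and Zic1 lower; Dcx and Olig2 were at or near 0. Both R9wt D5 libraries, which held the lowest Vim levels, also stood apart in other cytoskeleton genes: Krt18 had 1398 and 1790.3 CPM there against 80.8 to 407 CPM in the other libraries, and Acta1, a muscle actin gene, 92.2 and 91.3 CPM against 0.721 to 17.0 CPM. The part of other cell types or of these libraries in the Vim result was not tested.

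The other members differed less between genotypes: Actb by 0.53 ± 0.41 (log2 fold change, SE), Pfn1 by 0.52 ± 0.61, Cfl1 by 0.30 ± 0.22, Tuba1a by 0.21 ± 0.38, Tubb5 by 0.17 ± 0.24, Tuba1b by -0.053 ± 0.24, Tmsb10 by -0.10 ± 0.30, Tmsb4x by -0.18 ± 0.43 and Actg1 by -0.21 ± 0.32. The estimate for Pfn1 was 0.89 with matched pairs as a block (unadjusted p = 0.0202, adjusted p = 0.106 in edgeR) and lay between 0.19, without the space R9wt D1 library, and 1.05, without the ground R9wt D1 library. That for Actb lay between 0.29, without the space R9wt D1 library, and 0.86, without the space R9wt D5 library. Without 1 library the other estimates that kept their sign lay between -0.57 (space R9del D1 left out) and -0.041 (ground R9del D5) for Actg1, between 0.057 (ground R9wt D5) and 0.38 (ground R9wt D1) for Tubb5 and between 0.21 (space R9wt D1) and 0.50 (ground R9wt D1) for Cfl1.

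Culture duration gave no call. None of the 20544 genes tested, members included, passed an adjusted p under 0.05 for D5 against D1 (edgeR, 0.0%), none of the members had an unadjusted p under 0.05 where 4.37% of genes did, and no member's groups were apart, as 2.85% of genes were. DESeq2's Wald test called 84 genes higher and 12 lower, no member among them. Tmsb10 was closest, at 58.5 to 88.4 CPM at D5 and 39.2 to 62.4 CPM at D1, higher at D5 in 4 of 4 pairs as were 10.5% of genes (log2 fold change 0.57 ± 0.26, SE, unadjusted p = 0.0515, adjusted p = 1.00). With matched pairs as a block Tmsb10 had an unadjusted p of 0.0101 (log2 fold change 0.58, adjusted p = 0.412), and its unadjusted p was also under 0.05 with both other scalings, the Wald test and covariates. Its partner Tmsb4x had -0.34 ± 0.43 (-0.64 without the space R9wt D5 and -0.0084 without the ground R9wt D1 library). Vim had the largest estimate, -0.77 ± 0.57 (-1.18 with the block, unadjusted p = 0.0158, adjusted p = 0.439; -1.49 without the space R9del D5 library and -0.44 without the ground R9wt D5 library), with the ground R9wt D5 library at 13.1 CPM and the space R9del D5 library at 125 CPM. For the other members log2 fold changes lay between -0.40 (Actg1) and 0.30 (Tuba1a). Cell type markers also differed in their estimates, though none passed. All 10 primitive endoderm markers were higher at D5 (median log2 fold change 1.47), 6 of them with an unadjusted p under 0.05 in edgeR. Of 10 mesoderm and primitive streak markers 9 were higher, and of 5 neural markers tested 1 was. Over all genes tested, 10030 of 20544 were higher at D5. The part of these markers in the member results was not tested.

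Setting single libraries side by side, which has no replicate and no test, gave 120 member ratios in 12 comparisons, of which 16 were at least 2-fold up and 13 at least 2-fold down. In space against ground, R9wt D1 had 5 of 10 members down (20.2% of 17597 genes were), and R9wt D5 had 3 up (17.2%) and 1 down (19.5%). R9del D1 had 1 up (9.41%) and 1 down (12.3%), and R9del D5 had 1 up (8.18%). Ratios of this size were also more frequent over all genes in the R9wt than in the R9del pairs. In R9del against R9wt, the ground pairs had 1 member down at D1 (12%) and 1 up at D5 (16.8%), and the space pairs had 4 up at D1 (18.6%) and 2 up at D5 (12.1%). In D5 against D1, ground R9del had 1 down (5.96%), ground R9wt had 3 down (14.5%), and space R9wt had 4 up (15.1%) and 1 down (13.1%), while space R9del had none.

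Whether the response to one condition depended on another was tested with an interaction term. No gene passed an adjusted p under 0.05 in any of the 3 tests (edgeR, 0.0% each), whereas DESeq2's Wald test called 24, 78 and 160 genes. Members with an unadjusted p under 0.05 numbered 2 of 10 for location by genotype (2.97% of all genes), 2 for location by day (6.63%) and 1 for genotype by day (4.4%). For location by day these were Tmsb4x, with a log2 interaction of 1.99 ± 0.58 (SE, unadjusted p = 0.00906, adjusted p = 0.720), and Pfn1, with 1.47 ± 0.60 (adjusted p = 0.720). The space to ground ratio of Tmsb4x in R9wt was 0.236 at D1 and 2.01 at D5, and in R9del it was 0.752 and 1.57. For location by genotype they were Tmsb10 (0.93 ± 0.33) and Actg1 (0.98 ± 0.39), and for genotype by day Vim (1.39 ± 0.50), all with an adjusted p of 1.00. Because each condition is 1 library, these values carry the library's own error too.

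The shares of the variation in log2 CPM over the 8 libraries that fall to each design term, which are a description with no test, set the genes apart. Location took 55.8% for Pfn1, against a median of 25.95% over those 2335 genes. Genotype took 41.2% and day 31.2% for Vim, day 56.5% for Tmsb10 and the location by day term 64.7% for Tmsb4x. The medians over those genes, which do not include Vim and Tmsb10, were 18.8% for genotype, 5.54% for day and 4.56% for location by day. For Actb and Tubb5 genotype took 23.5% and 12.6%, location and day each less than 3%, and the location by day and three-way terms took 29.6% and 27.2% for Actb and 32.9% and 32.7% for Tubb5.

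**Figure D4:**
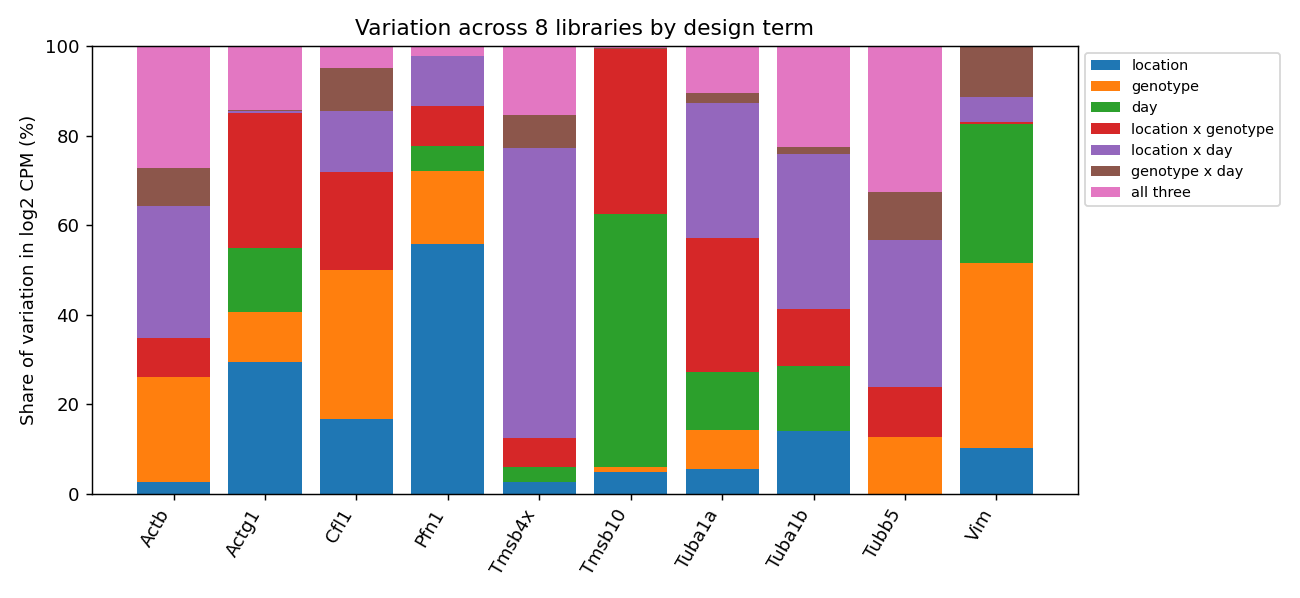
Share of the variation in log2 CPM across the 8 libraries (y axis, %) that falls to each design term (colours), for each gene (x axis); shares of 1 gene add to 100%. Location is the largest share for Pfn1, at 55.8%, and the location by day term for Tmsb4x, at 64.7%.

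The SD of log2 CPM over the 8 libraries ranged from 0.31 (Cfl1) to 1.18 (Pfn1), with Tuba1b and Tubb5 at 0.32 each, Tmsb10 at 0.41, Actg1 at 0.48, Tuba1a at 0.66, Tmsb4x at 0.69, Actb at 0.75 and Vim at 1.13. Among the 2335 genes that averaged 100 CPM or more, whose median SD was 0.43, Actb was more variable than 85.3% and Pfn1 than 94.9%, and the median member than 69.6%. The conventional reference genes, a list of 12, had a median SD of 0.34, more variable than 32.1% of those genes. Gapdh, a glycolytic enzyme gene that is widely used as a reference, had 0.30. Tmsb10 and Vim averaged less than 100 CPM, as did B2m, Gusb and Tbp of the reference list. They were ranked against a set that does not hold them. The highest library exceeded the lowest by 10.5-fold for Pfn1, 9.51-fold for Vim, 4.66-fold for Actb and 1.79-fold for Cfl1. Single libraries carried the widest of these: without the space R9wt D1 library the fold was 3.43 for Pfn1 and 3.10 for Actb. Without the ground R9wt D5 library it was 3.91 for Vim. The spread of Tuba1a also rested on the space R9wt D1 library, with a fold of 4.45 over all libraries and 1.58 without it. For Tuba1b these folds were 2.10 and 1.41.

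Genes whose log2 CPM followed a member most closely over the 8 libraries were sought among the 2335 genes that averaged 100 CPM or more. For Actb they were Ecd (Pearson r = 0.93), Eif4g1 (0.93) and Spin1 (0.93). For Tubb5 they were Rcl1 (0.97), Dnajc8 (0.94) and Bid (0.94). For Tmsb4x they were Rraga (0.89), Cct8 (0.87), a subunit of the chaperonin that folds actin and tubulin, and Stt3b (0.87). For Vim they were 1110038B12Rik (0.98), Spry4 (0.98), an inhibitor of receptor tyrosine kinase signalling, and Spns1 (0.97). The points share library, depth and scaling, and the 3 genes were picked from 2335, so these values are a description.

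Other cytoskeleton genes were taken from lists chosen with earlier results known. In space against ground, the median log2 fold change was -0.15 over the 10 members and 0.014 over all genes tested. Of 26 crosslinkers, tropomyosins and myosin light chains, 1 rose and 4 fell, where 1.0% of all genes tested rose and 5.31% fell. Fscn1, which encodes the actin-bundling protein fascin, fell from 347 ± 56.8 to 70.0 ± 19.1 CPM (SD, n = 4; log2 fold change -2.31 ± 0.25, SE, adjusted p = 0.000363), and Vcl, which encodes vinculin of focal adhesions, rose from 14.1 ± 2.68 to 44.2 ± 7.40 CPM (1.65 ± 0.24, adjusted p = 0.00246). Zyx, zyxin, fell by 1.87 on the log2 scale (adjusted p = 0.0419), a call lost without 6 of the 8 libraries in turn. The other two that fell were Cnn3, a calponin, and Rdx, radixin, which links actin to the plasma membrane; they are named here because of their calls.

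Of 19 folding genes, 2 fell and none rose (5.31% and 1.0% of all genes). Tbcc, tubulin cofactor C, had 34.6 to 48.5 CPM on the ground and 0.824 to 1.61 CPM in space (log2 fold change -5.15 ± 0.33, SE, adjusted p = 4.49e-05), and Vbp1, a prefoldin subunit, fell from 210.0 ± 49.9 to 46.3 ± 8.91 CPM (SD). Of 16 microtubule-associated and destabilising genes, 1 rose and 2 fell (1.0% and 5.31% of all genes): Tpt1 fell by 1.97 on the log2 scale (adjusted p = 0.000435), Mapre3 by 1.90 (adjusted p = 0.0461) and Clasp1 rose by 1.04 (adjusted p = 0.0415), where the calls of Mapre3 and Clasp1 were lost without 7 and 6 of the 8 libraries in turn. None of the 9 Arp2/3 genes passed, with Arpc2 at -0.83 (adjusted p = 0.0522) and Arpc5l at -0.73 (adjusted p = 0.0577). The 16 other tubulins, 5 other actins, 19 turnover genes, 4 Srf and cofactor genes and 14 other intermediate filament genes gave no call in this comparison. Among turnover genes that averaged 10 CPM or more, the largest estimates were those of Cfl2 (-1.02) and Cap1 (0.97), and among Srf and its cofactors those of Mrtfb (0.99) and Mrtfa (0.76).

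In R9del against R9wt, 1 of the 16 other tubulins rose (1.04% of all genes did) and 1 of the 16 microtubule-associated genes fell (0.764% did). Tubb3, the neuronal β-tubulin, had 72.1 to 115 CPM in R9del and 6.24 to 26.8 CPM in R9wt libraries (log2 fold change 2.65 ± 0.43, SE, adjusted p = 0.0336). Stmn2, which encodes a microtubule-destabilising protein of neurons, fell from 158 ± 72.7 to 40.6 ± 13.8 CPM (SD, n = 4; -1.96 ± 0.37, SE, adjusted p = 0.0415). Each call was lost without 7 of the 8 libraries in turn. In D5 against D1 no listed gene passed. The keratin gene Krt18, a simple epithelial intermediate filament gene, had 1398 CPM in the ground R9wt D5 and 1790.3 CPM in the space R9wt D5 library and 80.8 to 407 CPM in the others (log2 fold change 3.08 ± 0.61, SE, adjusted p = 0.674).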

How the data were processed

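The authors aligned paired-end reads to mm9 with TopHat2 2.0.9 and deposited raw counts per Ensembl gene identifier; the counting program, annotation and use of strand are not given in the sources used here. Counts were scaled by TMM and tested with edgeR 4.0.16 (quasi-likelihood, filterByExpr with a minimum count of 10, Benjamini-Hochberg adjustment over all 20544 genes tested, call at an adjusted p under 0.05), in R 4.3.3. A second rule was a fold of at least 2 with an unadjusted p under 0.05. Log2 CPM used a prior count of 2. Interactions had the third variable as covariate. Ratios had exact permutation tests. DESeq2 was version 1.42.0. The members and gene lists were chosen with earlier results of these data known. Named genes of other lists are those past the threshold (at most 3 per list and comparison), otherwise the 2 with the largest change at 10 CPM or more, as far as they are given. The minimum of 10 CPM for the GC and length quartiles was chosen after seeing that fewer than 80% of all genes tested had a value. Libraries matched on the other 2 conditions deviated together (correlation of deviations 0.282 to 0.609 for space and ground, 0.349 to 0.488 for genotype, 0.375 to 0.574 for day). The alternatives were DESeq2 size factors, library size alone, DESeq2's Wald test, no filter, matched pairs as a block, covariates and leaving out each of 8 libraries; the same for the fold of the highest over the lowest library was chosen after seeing the data.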

Additional observations from a re-analysis of the deposited data

Results flagged for a closer look

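Of 60 groups of 4 libraries (10 genes, 2 groups in each of 3 comparisons), 3 held a library that lay far from the other 3, measured as its gap to the nearest library over the whole range of the group. By chance about 1 in 20 such groups would be picked. Tuba1a in the ground R9wt D1 library, at 429.5 CPM, stood above the other ground libraries (nearest 315 CPM, gap 0.853 of the range). Tuba1a in the space R9del D5 library, at 466 CPM, stood above the other R9del libraries (nearest 322 CPM, gap 0.846). Vim in the ground R9del D5 library, at 59.5 CPM, stood below the other R9del libraries (nearest 117 CPM, gap 0.887). Part of the reads of Tuba1a cannot be told apart from those of its copies.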

How the results depend on the processing

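With 1 library per condition, the tests cannot separate a condition from its library, and counting depth is not the limit for the members. No member was called in the main tests. With covariates, 1 member was called in space against ground (Pfn1) and 1 in R9del against R9wt (Vim). With matched pairs as a replicate block, 1 was called in R9del against R9wt (Vim). Of all 20544 genes, covariates called 527 higher and 1586 lower in space, and 681 higher and 800 lower in R9del. The block called 818 higher and 852 lower in R9del. Leaving out each library gave 0 to 1 called members in space against ground. Pfn1 was called without the space R9del D5 library, where 111 of 21224 genes were called higher and 828 lower. The block changed no other member's call.

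Over all genes, higher calls in space were 206 and became 806 with DESeq2's Wald test, 104 with no filter, 359 with the block, 527 with covariates and 530 by the fold rule, and 48 to 177 without 1 library; lower calls were 1091 and 1724 by the fold rule. For R9del, higher calls were 214 and became 981, 94, 818, 681 and 1267 in that order, and lower calls were 157 and became 1073, 63, 852, 800 and 1568. They lay between 0 and 250 (higher) and 0 and 275 (lower) without 1 library, and were 0 without any of ground R9del D1, ground R9wt D5, space R9del D1 or space R9wt D1. For D5, the Wald test gave 84 and 12 and the fold rule 500 and 218. The Wald test called 24 (location by genotype), 78 (location by day) and 160 (genotype by day) genes.

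Some signs turned, and the cause was not tested. D5 against D1 kept its sign but ranged from -0.61 to -0.22 for Actg1 and from 0.0035 to 0.37 for Tuba1b without 1 library. Space against ground for Tubb5 was 0.039 with DESeq2 size factors, 0.066 with library size alone, 0.054 with the Wald test and 0.011 with the block, and R9del against R9wt for Tuba1b was 0.025 with library size alone. Without 1 library, space against ground ranged from -0.49 to 0.11 (Tmsb4x), -0.36 to 0.014 (Tmsb10), -0.39 to 0.17 (Tuba1a) and -0.14 to 0.16 (Tubb5); R9del against R9wt from -0.43 to 0.20 (Tmsb4x), -0.26 to 0.12 (Tmsb10), -0.056 to 0.45 (Tuba1a) and -0.22 to 0.076 (Tuba1b); D5 against D1 from -0.41 to 0.20 (Actb), -0.18 to 0.11 (Cfl1), -0.23 to 0.51 (Pfn1), -0.00066 to 0.55 (Tuba1a) and -0.18 to 0.13 (Tubb5). Log2 ratio differences without 1 library ranged, for Actb/Actg1, from -0.50 to 0.23 (location), 0.62 to 1.28 (genotype; exact permutation p = 0.0286 without the space R9wt D5 library) and -0.13 to 0.71 (day); for Tuba1a/Tuba1b from -0.26 to 0.20 (location) and -0.023 to 0.33 (day); for Tmsb4x/Tmsb10 from -0.40 to 0.29 (location) and -0.27 to 0.38 (genotype); for Cfl1/Pfn1 from 1.01 to 1.68 (location; exact permutation p = 0.0571 without any 1 ground library) and -0.88 to 0.024 (day).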
